A study of Mus musculus with 10 samples.

Results

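The genes described here encode the proteins of the cytosolic ribosome. They were taken as every gene whose symbol is RPL, RPS or RPLP followed by a number, with or without a final A or X, among the array's probe sets that carry exactly 1 gene symbol. This rule found 65 genes among 19556, namely 39 large subunit genes (RPL), 24 small subunit genes (RPS) and the stalk genes RPLP1 and RPLP2. Each was represented by 1 probe set, the one with the highest mean over the 10 arrays, and all 65 passed the filter on low values that left 17170 genes for testing. Ribosomal genes with other names, such as FAU, were counted apart. No sequence is shown, because the sequence tables used here belong to the mouse and the arrays read human RNA.

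Human estrogen receptor positive breast cancer cells had been grown as xenografts in female nu/nu mice with an implanted estrogen pellet, 20 weeks old per the labels. In the lymph node groups, axillary metastases were sampled with the pellet in place (E, mice 6, 11 and 14) or after its removal for 1 week (EWD, mice 9, 10 and 19). The primary mammary gland tumor groups were E (mice 11 and 14) and EWD (mice 10 and 19), so 4 of the 6 mice gave both sites. Cells were cut from frozen sections by laser capture, and their RNA was amplified by PCR and hybridized to Affymetrix arrays. The cell line is not named in the labels, no mice that had never carried a pellet were measured, and nu/nu mice lack mature T cells while keeping other immune cells. The replicate is the mouse, and every value below is a log2 signal, so a difference of 1 is a doubling.

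Ribosomal proteins bind ribosomal RNA in the nucleolus and form the small subunit, which reads the mRNA, and the large subunit, which joins amino acids. Because both subunits need their proteins in fixed proportions, the genes are known to be expressed together and strongly in growing cells, and their mRNAs share a pyrimidine tract at the very start that couples their translation to mTOR signalling. In breast epithelium, ribosome production is known to rise with growth signals that include estrogen and MYC. The genes also have many processed pseudogenes and near-identical copies. Of the 65 probe sets used, 20 carry the _x_ mark for probes that match other sequences too, so a signal can include copies.

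On every array the ribosomal probe sets were among the brightest, 48 to 55 of the 65 lying in the top 1% of all probe sets, although signals of different probe sets are not comparable as amounts of RNA. The median signal over the 65 genes was 12.83, 12.50 and 12.86 in the E lymph nodes of mice 6, 11 and 14. It was 12.73, 12.71 and 12.38 in the EWD lymph nodes of mice 9, 10 and 19. It was 10.06 and 11.12 in the E primary tumors of mice 11 and 14, against 12.48 and 12.72 in the EWD primary tumors of mice 10 and 19. The E primary tumors were thus the only arrays with a median under 12, and mouse 11 had the lowest. Luminal markers, measured to check the labelled cell type, also had a lower mean on these 2 arrays. The mean of 10 such genes was 8.02 to 8.21 there and 9.15 to 10.67 on the other 8. Not every gene followed: KRT8, at 6.21 and 5.97, and KRT19, at 4.41 and 4.38, lay within the range of the other 8. So did ESR1, at 8.04 and 8.25, because the E lymph node of mouse 11 stood at 5.44. FOXA1 was 4.62 and 4.08, of which only the second lay below the 4.48 of that node. All marker values are as deposited only, and these 2 arrays differed from the others in value distribution, as given below. Lymphoid markers averaged 2.85 to 3.23 on all arrays, with 8 of the 10 measured below 4, and 7 of 8 stromal markers were also below 4, COL1A1 at 7.01 being the exception. Basal markers averaged 5.04 to 5.75 in E tumors and 3.62 to 4.90 in EWD tumors over the 4 measured. Of these, KRT5 was 6.32 and 7.72 with E and 5.64 and 3.06 with EWD, and MYLK 3.46 and 4.11 against 2.71 and 3.01. In the other members the groups overlapped. ACTA2 was 7.40 and 7.67 with E and 8.79 and 5.01 with EWD, and KRT14 3.00 and 3.49 against 2.46 and 3.39. In lymph nodes the basal mean was 4.13 to 5.46 with E and 3.71 to 4.43 with EWD. In such samples of captured cells measured together, fewer cells of a type and less RNA per cell cannot be told apart.

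**Figure D1:**
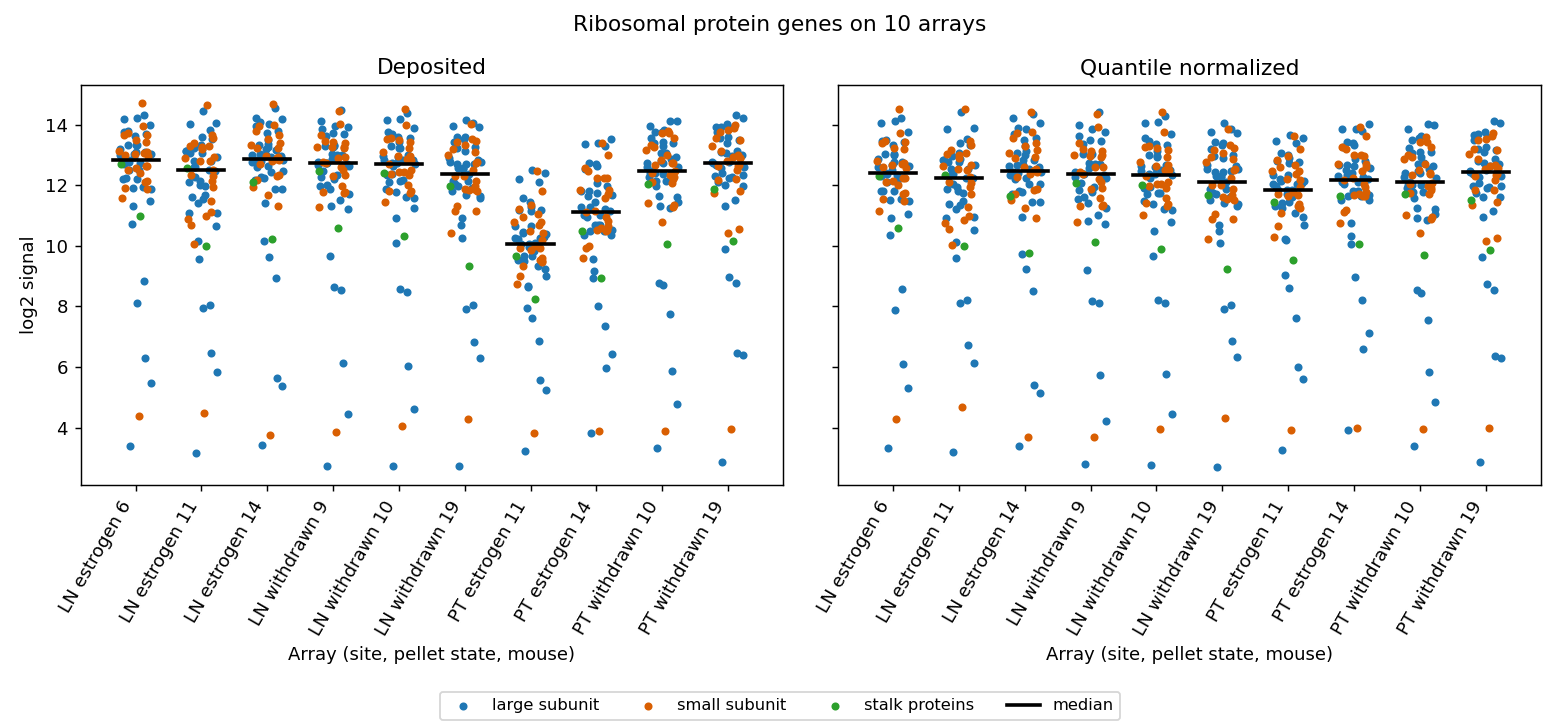
Log2 signal of the 65 ribosomal protein genes on each of the 10 arrays, as deposited (left) and after quantile normalization (right); LN is lymph node, PT is primary tumor, each point is a gene and the bar is the median. As deposited, the medians of the 2 E primary tumors lie at 10.06 and 11.12 and the other 8 between 12.38 and 12.86, while after quantile normalization all 10 lie between 11.84 and 12.47.

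Value distributions differed between the arrays, which bears on every comparison with the E primary tumors. The 99th percentile of all probe sets was 9.44 and 10.04 on these 2 arrays, against 11.39 to 11.67 on the others. Each comparison was therefore made as deposited and again after quantile normalization, which gives all arrays the same distribution. After it, the ribosomal medians were 12.40, 12.25 and 12.47 in the E lymph nodes, and 12.37, 12.32 and 12.09 in the EWD lymph nodes. In the primary tumors they were 11.84 and 12.18 with E, and 12.11 and 12.45 with EWD. On this scale the groups overlapped in both sites. The mean of the 18 hybridization control probe sets, a technical signal added to each sample, was 9.47 to 10.59 on 6 arrays and 12.04 to 12.47 on 4. Both E primary tumors lay in the first range and both EWD primary tumors in the second, so pellet state and this signal cannot be told apart in primary tumors. The GAPDH 3′ control exceeded the 5′ control, a measure of RNA length, by 3.15 and 3.73 in E tumors 11 and 14 and by 4.62 and 5.87 in EWD tumors 10 and 19. The part of these controls, and of the lower luminal and higher basal marker means, in the ribosomal differences was not tested.

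In primary tumors, as deposited, 38 of the 65 ribosomal protein genes were lower with E than with EWD by limma at an adjusted p below 0.05, and none was higher. Of all genes tested, 6.94% were called lower. The fall took in both subunits: 24 of 39 large subunit genes, 13 of 24 small subunit genes and 1 of the 2 stalk genes were called, with median differences of −1.79, −1.86 and −1.69. Over the 65 genes the median was −1.82, and over all genes tested −0.10. In 59 of the 65, both E tumors lay below both EWD tumors, which held for 38.3% of all genes.

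RPL9, a large subunit protein, had the lowest difference of those called. Its signal was 9.95 and 10.70 in the E tumors of mice 11 and 14 and 13.06 and 13.41 in the EWD tumors of mice 10 and 19, a difference of −2.91 (SE 0.41, limma adjusted p = 0.0118). Both E tumors lay more than 2 log2 units below both EWD tumors. RPS6, the substrate by which S6 kinase signalling is usually read, stood at 10.00 and 10.57 with E and at 13.01 and 12.94 with EWD. The difference was −2.69 (SE 0.58, limma adjusted p = 0.0307). Thus the groups of RPS6 were also well apart. RPL5, which with RPL11 binds MDM2 when ribosome assembly is disturbed, was 10.27 and 11.22 with E and 12.86 and 13.13 with EWD, and fell by 2.25 (limma adjusted p = 0.0127). RPL11 itself differed by −1.13 (SE 0.35, limma adjusted p = 0.0814) and was not called. RPLP1, an acidic stalk protein that recruits elongation factors, was called at −1.88 (SE 0.34), while its partner RPLP2 at −1.51 (SE 0.48) was not. The most negative difference of all, −3.22 for the small subunit gene RPS3A, missed the threshold (SE 0.84, limma adjusted p = 0.0525).

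Among genes tied to inherited ribosome disorders, RPS14, whose loss is linked to the anemia of the 5q deletion, was called at −2.22 (SE 0.48). RPS24 was called at −2.67 (SE 0.53). RPS19, the gene most often mutated in Diamond-Blackfan anemia, differed by −1.18 (SE 0.41, limma adjusted p = 0.111) and was not called. The genes RPL22, RPS4X and RPL39 were called at −2.13, −1.91 and −1.56. RPL17, RPL41 and RPS23 were called as well, at −2.71, −2.46 and −2.43.

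The ribosomal protein genes differed about as much as other genes of like signal. The 847 genes with a mean signal of at least 10 had a median difference of −1.90 in primary tumors, and the 57 ribosomal protein genes among them had −1.89. For the 7624 genes dimmer than 4 the median was 0.11. Within the 65 genes, mean signal and difference correlated at −0.53 as deposited, given as a description, since the genes share the same arrays. These calls rested on few arrays as well: of the 38, none stayed called in every fit that left out 1 array. No gene was called without the E tumor of mouse 11 or without either EWD tumor. Without E lymph node 6, EWD lymph node 9 or EWD lymph node 10, the count was 20, 25 and 17, where 3.66%, 4.99% and 2.63% of all genes were called lower.

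**Figure D2:**
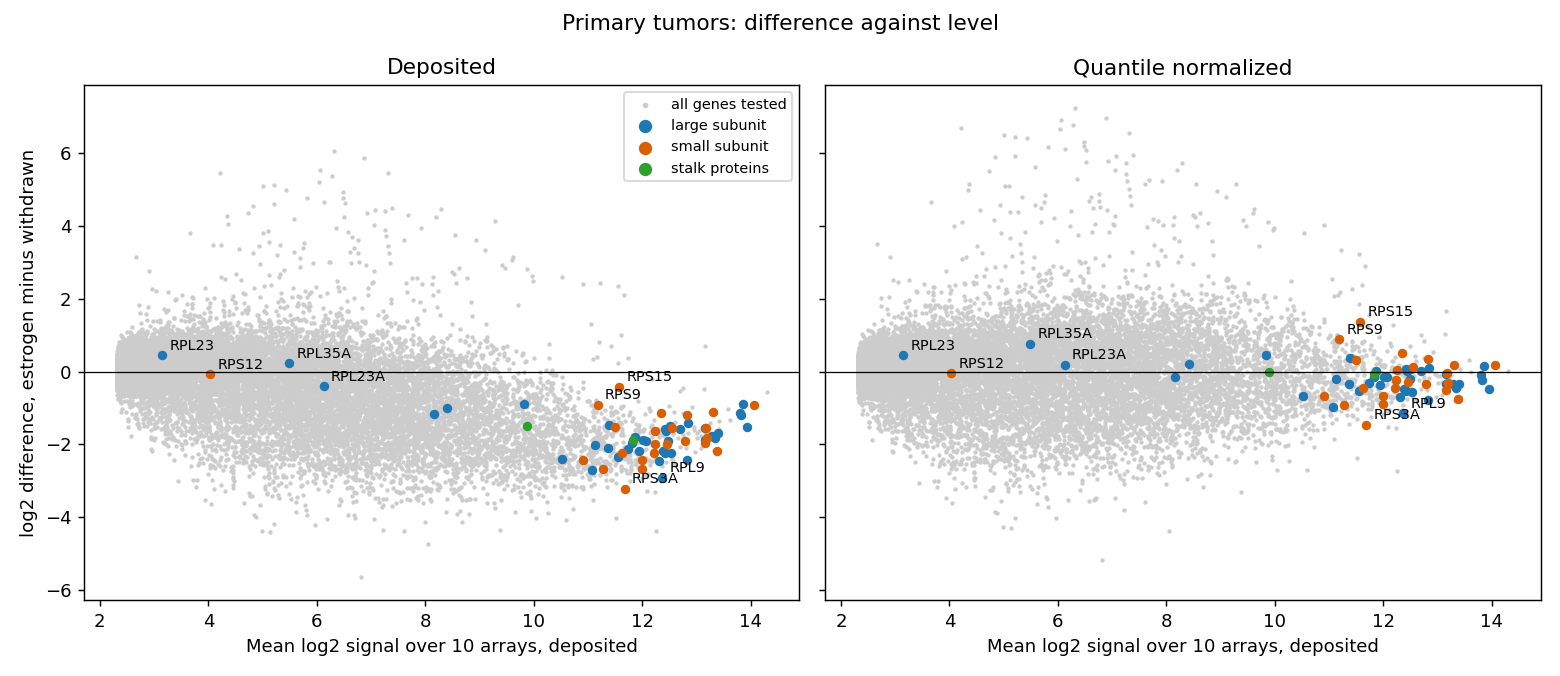
Difference between E and EWD primary tumors (log2, vertical axis) against the mean deposited log2 signal over 10 arrays (horizontal axis), as deposited on the left and after quantile normalization on the right; grey points are all 17170 genes tested and coloured points the ribosomal protein genes. As deposited, bright genes of every kind lie below 0, with a median of −1.90 at a signal of at least 10, and after quantile normalization that median is −0.19.

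After quantile normalization no ribosomal protein gene was called in primary tumors, where 1.34% of all genes were. The median over the 65 was −0.19, beside 0.06 for all genes tested. Among genes with a mean signal of at least 10, it was −0.29 for the 57 ribosomal protein genes and −0.19 for all 847. At an unadjusted p below 0.05 there were 7 of the 65 against 3658 of all 17170 genes, and 43 of the 65 differences were negative. Both E tumors lay below both EWD tumors in 24 genes, or 36.9% of the members, with 26.8% of all genes doing so. They lay above in 5 (RPL18, RPS9, RPS15, RPS16 and RPS19), with 31.1% of all genes doing so. RPL9 remained at −1.14 (SE 0.34, limma adjusted p = 0.114).

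The neighbouring parts of the translation machinery were described through lists of genes with known roles. Beside each count as deposited stand 6.94% of all genes called lower in E primary tumors and 0.879% called higher. Of 37 genes tested from a list of initiation and elongation factors and a few proteins that work beside them, 15 were called lower in E primary tumors as deposited, with a list median of −1.62. Of the 15, 4 are not such factors: PABPC1, the poly(A)-binding protein (−2.80), TPT1, the translationally controlled tumor protein (−2.15), and NACA and BTF3, both of the complex that binds nascent chains (−3.12 and −2.59). EEF1A1, which brings amino acid-loaded tRNA to the ribosome, was lower by −2.48 (SE 0.32), and EIF4H, a helper of the initiation helicase, by −2.36 (SE 0.34). EIF3I, a subunit of the initiation factor eIF3, was the 1 gene of the list called higher: it was 12.23 and 11.75 with E and 9.09 and 8.60 with EWD. That rise of 3.15 (SE 0.28, limma adjusted p = 0.00462) was 4.46 after quantile normalization, where it was still called, so EIF3I left the other factors on both scales. Of 9 other ribosomal proteins and paralogs, 3 were lower as deposited: FAU (−1.66), RPL36AL (−2.37) and RPS27L (−2.41). Of 42 ribosome assembly genes, NPM1 (−2.44), a nucleolar chaperone, and GNL2 (−1.70), a nucleolar GTPase, were called lower, with a list median of −0.37. This list was dimmer, with a mean signal of 7.94 beside 10.25 for the factors. Of 14 genes that control ribosomal protein synthesis, the kinase gene RPS6KB1 (−3.18), the mTOR activator RHEB (−2.63) and its brake TSC1 (−3.24) were called lower. After quantile normalization EIF3I was the only gene of these lists called in this comparison, where 1.34% of all genes were.

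In lymph node metastases the same pellet comparison gave no call among the 65 genes on either scale, and 0.0% of all genes were called. At an unadjusted p below 0.05 limma left 1 of the 65 (RPL23) as deposited, against 1002 of all genes, and the same 1 after quantile normalization, against 1115. The median difference was 0.11 as deposited, with 45 positive and 20 negative, and 0.10 after quantile normalization. At a signal of at least 10, it was 0.09 for the 57 ribosomal protein genes and −0.10 for all 847 as deposited, and 0.07 and −0.06 after quantile normalization. Individual differences ran from −0.40 for RPS3A to 0.62 for RPL28 as deposited. All 3 E nodes exceeded all 3 EWD nodes in 8 genes as deposited (RPL12, RPL19, RPL23, RPL35, RPS2, RPS10, RPS28 and RPS29), or 12.3% against 4.47% of all genes. After quantile normalization this held for 4 (RPL21, RPL23, RPS10 and RPS28), or 6.15% against 5.47% of all genes. The hybridization controls split this comparison. Among the 2 E and 2 EWD nodes in the lower range the median member difference was 0.20, and between the 1 E and 1 EWD node in the higher range it was −0.04.

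RPS2, a protein at the entry of the mRNA channel, shows the size of these differences. Its signal was 14.71, 14.63 and 14.67 in E nodes 6, 11 and 14 and 14.46, 14.52 and 14.01 in EWD nodes 9, 10 and 19. The E nodes were all above the EWD nodes, by 0.34 on average (SE 0.27, limma adjusted p = 0.941). RPS6 was 12.41, 10.97 and 12.79 in the E nodes and 12.91, 12.42 and 11.85 in the EWD nodes. The groups overlapped, and the low E value came from mouse 11.

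The pellet response was set against itself in both sites by the difference of responses, lymph node minus primary tumor. As deposited the 65 differences were all positive, with a median of 1.88, from 0.14 for RPL23 to 2.84 for RPS25. None was called by limma after Benjamini-Hochberg adjustment (smallest adjusted p 0.137), although 57 had an unadjusted p below 0.05. Over all genes tested the median was 0.15, 0.0116% were called and 1862 had such a p. At a signal of at least 10, the median was 2.00 for the 57 ribosomal protein genes and 1.78 for all 847. After quantile normalization the median was 0.35, 9 of the 65 differences turned negative, none was called and 1 had an unadjusted p below 0.05. Of all genes 0.00582% were called there, with a median of −0.02. The 57 brighter ribosomal protein genes had a median of 0.38 on this scale, and all 847 genes of such signal 0.12. Leaving out the E lymph node of mouse 11 or the E tumor of mouse 14 brought 33 and 29 of the 65 under the threshold as deposited, all with positive differences. In these fits 8.4% and 0.862% of all genes were called in that direction. With the hybridization control mean as a covariate the count was 39, with 20.0% of all genes.

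**Figure D3:**
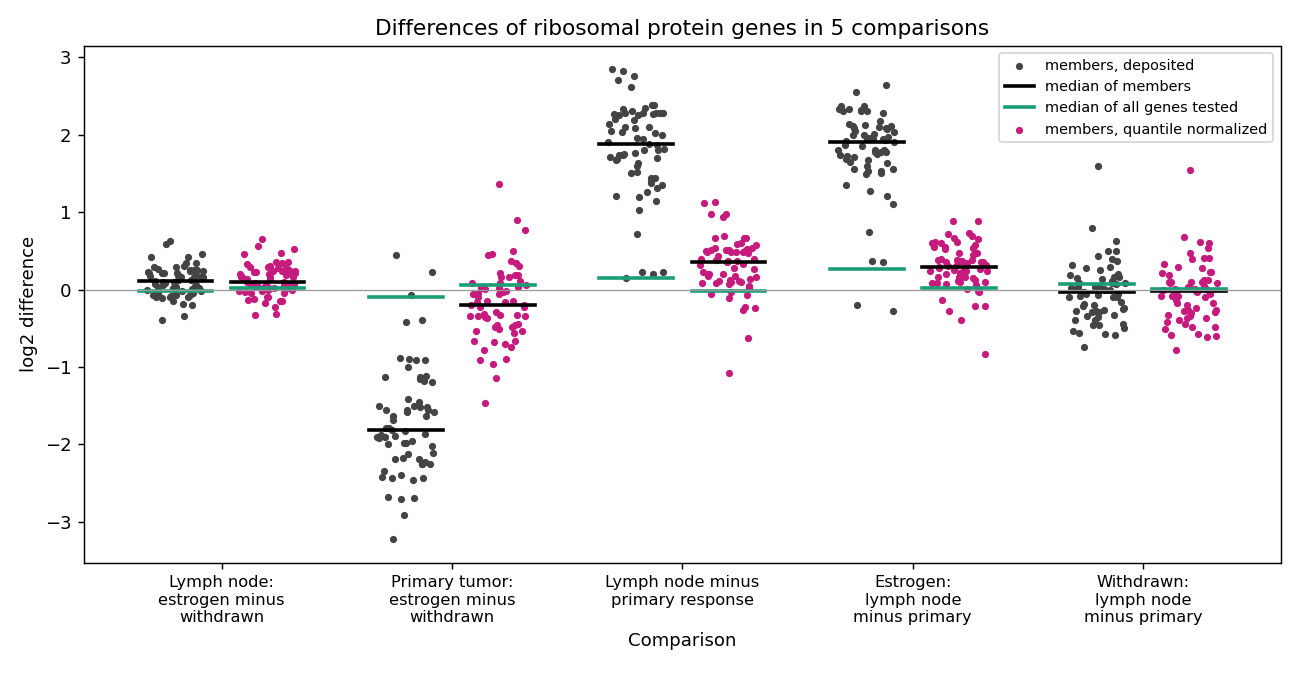
Fitted log2 differences of the 65 ribosomal protein genes in the 5 comparisons (horizontal axis), as deposited in grey and after quantile normalization in pink; black bars are medians of the ribosomal genes and green bars medians of all 17170 genes tested. Medians as deposited are 0.11, −1.82, 1.88, 1.91 and −0.03 from left to right, and after quantile normalization 0.10, −0.19, 0.35, 0.29 and −0.02.

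Between the sites with the pellet in place, 49 of the 65 genes were called higher in lymph nodes than in primary tumors as deposited, and none lower, where 7.81% of all genes were called higher. This comparison shares the E primary tumors with the pellet comparison above, so the values are not a second observation of them. By part, 29 of 39 large subunit genes, 18 of 24 small subunit genes and both stalk genes were called, with medians of 1.87, 1.94 and 2.09. The median over the 65 was 1.91, beside 0.26 for all genes tested. At a signal of at least 10, it was 1.94 for the 57 ribosomal protein genes and 1.88 for all 847. All 3 nodes exceeded both tumors in 60 genes, while 28.0% of all genes did so.

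RPS14 differed most. Its signal was 13.09, 12.52 and 12.94 in E nodes 6, 11 and 14 and 9.61 and 10.80 in E tumors 11 and 14, a difference of 2.64 (SE 0.44, limma adjusted p = 0.0109). Every node lay above both tumors by more than 1 log2 unit. RPL13 was higher by 2.55 (SE 0.37), RPLP1 by 2.37 (SE 0.31) and RPL9 by 2.37 (SE 0.38). RPS21 and RPL19, a protein of the contact between subunits, were higher by 2.34 and 2.33. Within mice 11 and 14, which gave both sites, RPLP1 was 12.55 and 12.10 in the node and 9.67 and 10.49 in the tumor. Both mice therefore showed the same order.

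In fits that left out 1 array, RPL5, RPL7, RPL10, RPL14, RPL19 and RPLP1 stayed called in all. The count fell to 6 without the E tumor of mouse 11 and to 10 without the E node of mouse 6, with 0.786% and 2.04% of all genes called higher. It was 30 without EWD lymph node 10 (4.65% of all genes) and 32 without either EWD tumor (5.57%). With only the 5 arrays compared, or with mouse as a fixed block, no gene at all was called. In the nodes and tumors of the lower hybridization control range the median was 1.99, over 2 nodes and 2 tumors. After quantile normalization none was called, beside 0.46% of all genes. The median was then 0.29, and 0.30 for the 57 brighter members beside 0.20 for all genes of such signal. Of the members, 6 of the 65 against 2082 of all genes had an unadjusted p below 0.05. The nodes exceeded the tumors in 14 genes, or 21.5% against 13.6% of all genes, among them RPS14, RPL13, RPL5, RPL19, RPS2 and RPLP1. RPS14 led these at 0.88 (SE 0.37, limma adjusted p = 0.39).

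After withdrawal the sites stood close. No ribosomal protein gene and 0.0% of all genes were called on either scale, and at an unadjusted p below 0.05 there were 1 of the 65 (RPS15) against 1723 of all genes as deposited and 3 (RPL10, RPS2 and RPS15) against 1440 after quantile normalization. The median difference, lymph node minus primary tumor, was −0.03 as deposited and −0.02 after quantile normalization. As deposited, 29 differences were positive and 36 negative. At a signal of at least 10, the deposited median was −0.05 for the 57 ribosomal protein genes and 0.04 for all 847. Within the higher hybridization control range, with 1 node and 2 tumors, the median was −0.21. The 3 nodes lay above both tumors in 9 genes, or 13.8% against 20.8% of all genes. They lay below in 18 genes, or 27.7% against 10.2% of all genes. After quantile normalization these were 7, or 10.8% against 17.7%, and 16, or 24.6% against 13.8%. Those above on both scales were RPL10, RPL18, RPS2, RPS15, RPS16 and RPS19. RPS6, RPS24, RPS23, RPL30 and RPL22 were among those below on both. With the hybridization control mean as a covariate 2 were called lower and 2 higher, beside 7.9% and 5.36% of all genes.

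The members were then compared with each other, by subtracting the median ribosomal protein gene from each array and refitting. As deposited, 7 genes in primary tumors lay above the shared shift with E: RPL23, RPS12, RPL35A, RPL23A, RPS15, RPL18 and RPS2. Of all genes, 68.3% did so, and the median over all genes on this scale was 1.91. The difference of responses called RPL23, RPS12 and RPL23A lower, with 64.3% of all genes. Between the sites with E, 7 were called lower (RPL12, RPL23, RPL23A, RPL35A, RPL36A, RPS10 and RPS12), with 74.6% of all genes. None was called in the lymph node pellet comparison (0.0349% of all genes) or between the sites after withdrawal (0.0233%). With both quantile normalization and this subtraction, none of the 65 was called in any of the 5 comparisons. The shares of all genes called there were 0.0116% for the lymph node pellet comparison, 1.05% for the primary tumors, 0.0291% for the difference of responses, 0.658% between the sites with E and 0.0% between them after withdrawal.

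The 4 genes that left the shift most, RPL23, RPS12, RPL35A and RPL23A, are those whose probe set had the lowest mean signal, at 3.15, 4.04, 5.49 and 6.13. The array medians of all probe sets were 2.7 to 2.8. RPL23, a protein of the surface where the subunits meet, was 3.24 and 3.83 in the E tumors and 3.33 and 2.85 in the EWD tumors. RPS12, on the outer side of the small subunit, was 3.81 and 3.89 with E and 3.88 and 3.95 with EWD. In both, the E and EWD tumors overlapped, and the differences of 0.44 and −0.07 were not called. Other probe sets list the same symbols beside further symbols, and are not counted as the gene here. Their values are 12.30, 11.91, 12.65 and 12.81 on average over the 10 arrays for those listing RPL23, RPS12, RPL35A and RPL23A. They were lower in E primary tumors by −2.04, −2.40, −1.90 and −1.70 as deposited and by −0.27, −0.62, −0.31 and −0.14 after quantile normalization. The brighter probe sets thus moved with the other ribosomal protein genes, and the dim ones did not.

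**Figure D4:**
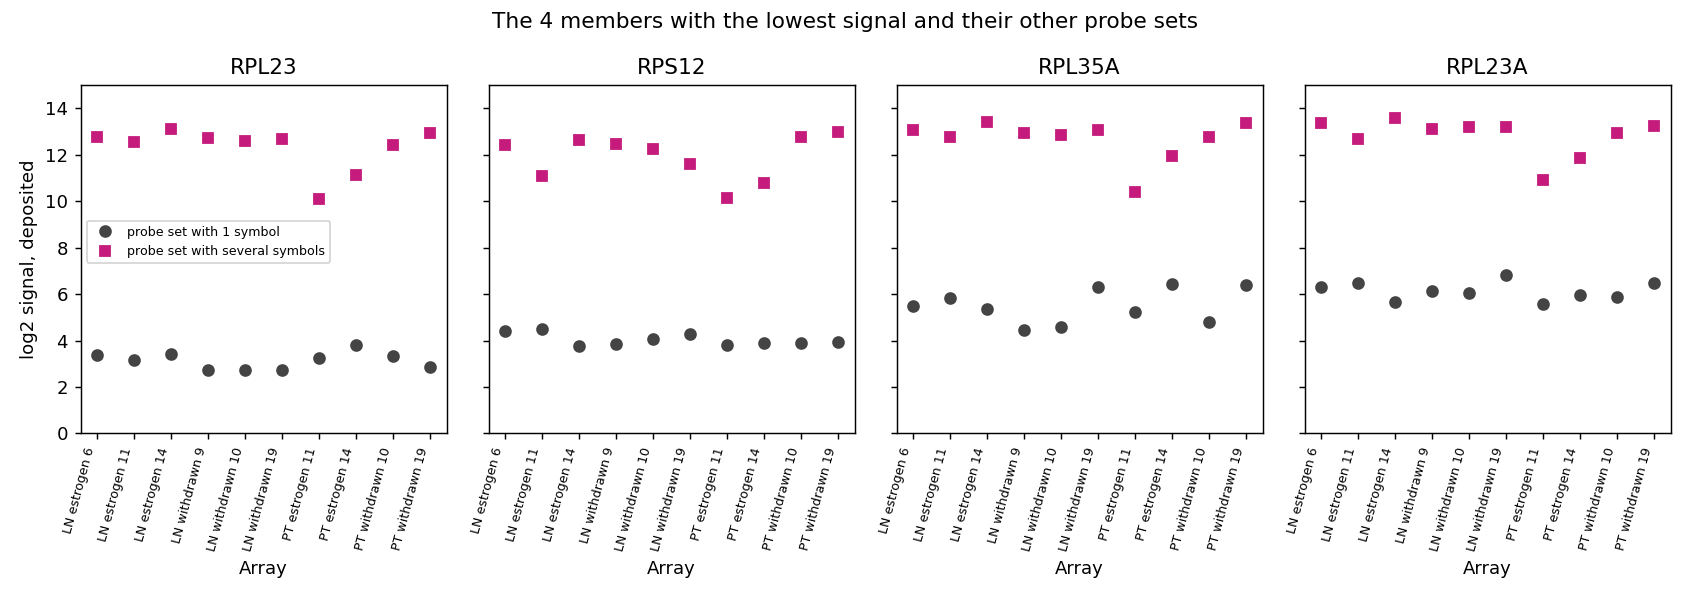
Deposited log2 signal on each array for the 4 ribosomal protein genes with the dimmest probe sets (dark circles, annotated with 1 symbol) and for the brighter probe set that lists the same symbol beside others (pink squares). The circles stay between 2.74 and 6.83 with no step at the E primary tumors, while the squares drop there to 10.11 and 11.14 in the case of RPL23.

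Other probe sets of the same genes were used to see whether the shift depended on the probe set chosen. There were 132 further single-symbol probe sets for 49 of the 65 genes. Of these, 52 had a mean signal of at least 10, and all 52 were lower in E primary tumors as deposited, with a median of −1.85 that was −0.08 after quantile normalization. The 34 with a mean below 4 had a median of 0.03. For RPL9 the second probe set gave −2.91 and for RPS3A −3.43, beside −2.91 and −3.22 for those used. For RPS6 it gave −2.0, a smaller difference than the −2.69 of the probe set used.

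Some bright members also parted from the median gene, below the threshold after quantile normalization. RPS15, a small subunit protein near the decoding centre, did so most in the primary tumors. As deposited its signal was 9.86 and 10.53 in E tumors 11 and 14 and 10.80 and 10.44 in EWD tumors 10 and 19. The pellet groups overlapped, with a difference of −0.42 (SE 0.48), where the median member differed by −1.82. In lymph nodes RPS15 was 12.56, 13.26 and 11.68 with E (mice 6, 11 and 14) and 12.31, 12.42 and 11.88 with EWD (mice 9, 10 and 19). All 3 EWD nodes exceeded both EWD tumors by more than 1 log2 unit. That difference of 1.59 (SE 0.45, limma adjusted p = 0.29) was 1.55 after quantile normalization (SE 0.44, limma adjusted p = 0.418).

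Relative to the median ribosomal protein gene after quantile normalization, RPS15 stood at −1.68 and −2.30 in EWD tumors 10 and 19, and between −1.22 and 0.74 on the other 8 arrays. So its 2 lowest relative values were those of the EWD tumors. In primary tumors it was higher with E by 1.64 on this relative scale (SE 0.54, limma adjusted p = 0.13). The second RPS15 probe set had a mean signal of 2.04 and gives no check. RPS9, another small subunit protein, differed by 1.16 on the same scale (SE 0.44, limma adjusted p = 0.171). Of the 9 RPS9 probe sets, the 4 with a signal of at least 10 gave 0.76 to 1.16. RPS16 was higher by 0.77 (SE 0.31) and RPS19 by 0.62 (SE 0.33), both with adjusted p-values from limma above 0.1.

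In the other direction, RPS3A was lower with E by −1.19 (SE 0.62, limma adjusted p = 0.274) and RPL9 by −0.88 (SE 0.32, limma adjusted p = 0.161) relative to the median member. RPS3A stood at −0.75 and −1.0 in the E tumors and at 0.22 and 0.41 in the EWD tumors. The groups did not overlap, but in E lymph nodes RPS3A ran from −2.23 in mouse 11 to −0.19 in mouse 14, so the spread in the nodes exceeded the difference in the tumors. RPL17, RPS24 and RPS6 followed at −0.69, −0.64 and −0.63.

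**Figure D5:**
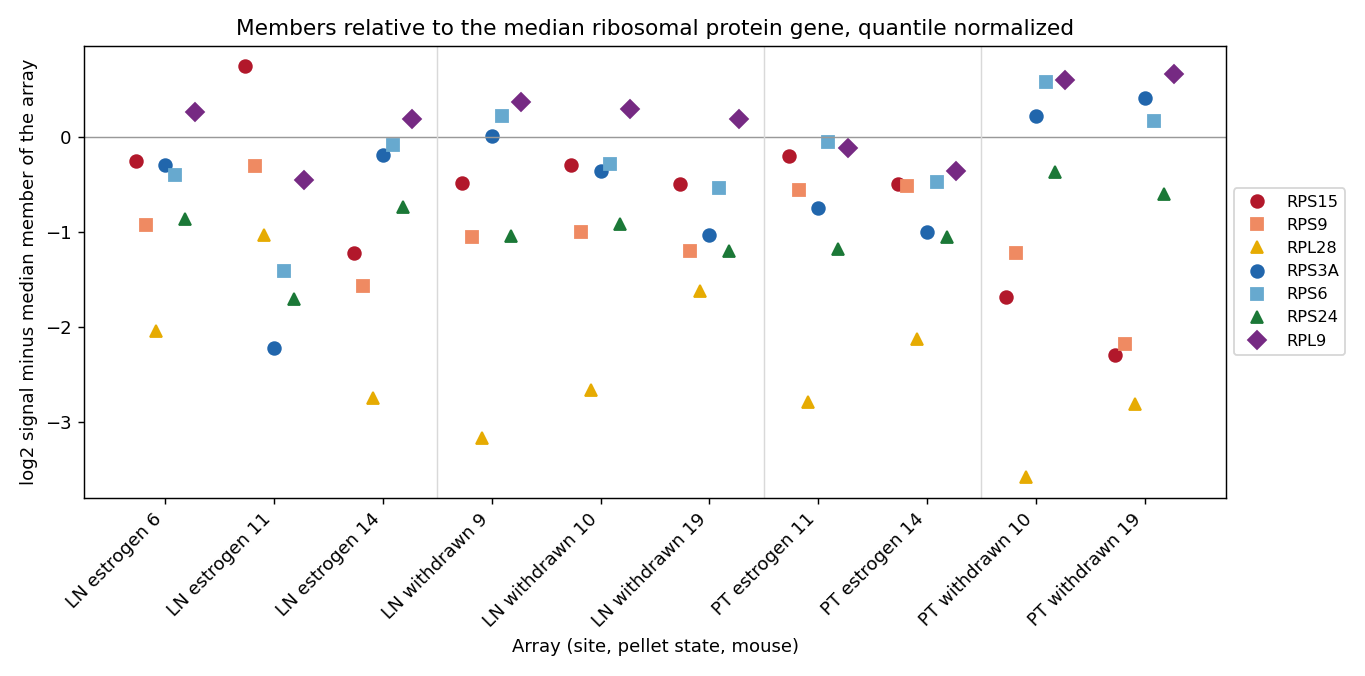
Signal of 7 ribosomal protein genes minus the median ribosomal protein gene of the same array (log2, after quantile normalization, vertical axis) on the 10 arrays (horizontal axis). RPS15 falls to −1.68 and −2.30 in the EWD primary tumors, and RPS3A falls to −2.23 in the E lymph node of mouse 11.

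The E lymph node of mouse 11 was the array on which the members were most unlike their own usual order. After quantile normalization and removal of each gene's mean over the arrays, the SD over the 65 genes was 0.55 there and 0.21 to 0.40 on the other 9. RPS3A, RPS6, RPS23 and RPL17 were the lowest there, and RPL28, RPS15, RPL36 and RPS9 the highest. RPL28, a large subunit protein, was 11.40 on that array as deposited and 10.72 and 10.16 in E nodes 6 and 14. RPS3A was 10.05 there and 12.49 and 12.70 in the other E nodes. In the EWD primary tumor of mouse 19 the order was turned, with RPS15 and RPS9 among the 4 lowest and RPS3A and RPS23 among the 4 highest. The hybridization control mean on this lymph node array was 12.04, beside 10.59 and 9.65 in E nodes 6 and 14. Cell markers stood apart on it too. The endothelial markers PECAM1, VWF, CDH5, KDR and TEK were all higher there than in E nodes 6 and 14. PECAM1 was 4.55 against 3.17 and 2.78, and CDH5 4.88 against 4.31 and 3.72. Of these 5 markers, 4 had a mean signal below 4. No other marker list moved in full. The luminal marker ESR1, the estrogen receptor, was 5.44 there against 9.22 and 10.24 in E nodes 6 and 14. The basal keratin KRT5 was 6.22 against 3.18 and 3.44, and the myeloid marker ITGAM was 5.06 against 2.37 and 2.28. Luminal KRT18, EPCAM, CDH1, GATA3 and FOXA1 also lay below both E nodes 6 and 14, while KRT19 lay above both. Basal KRT14 and ACTA2 and myeloid CD14 and AIF1 also lay above both. Myeloid LYZ and CSF1R lay below both, and TYROBP equalled its value in E node 14. Luminal AGR2 and the following genes lay between E nodes 6 and 14. Luminal KRT8 was 9.56 against 9.61 and 6.72, and TFF1 was 14.13 against 14.02 and 14.14. Basal MYLK was 3.50 against 4.08 and 2.92, and myeloid CD163 was 2.13 against 2.09 and 2.17. The part of the controls and of these markers in the ribosomal differences was not tested.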

How the data were processed

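The authors deposited log2 signal values, 1 per probe set and array, made with Partek and RMA per the submitters' processing notes, where roles and versions are not given. RMA corrects background, normalizes and summarizes probes, yet these arrays do not share 1 distribution. PCR amplification of captured RNA can favor 3′ ends. Arrays give no counts, and their number limits precision.

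Of 61359 probe sets, 62 were controls, 44532 had 1 symbol, 1492 several and 15273 none in the platform table, whose symbols can be old. Genes were kept if their mean reached the 25th percentile of probe set means (2.31), which removed 2386. limma 3.58.1 in R 4.3.3 (lmFit, eBayes) fitted 1 mean per group over 10 arrays, with mouse as a random block, since 4 mice gave both sites (deviations from group means correlated at 0.18, −0.21, −0.21 and 0.08 in mice 10, 11, 14 and 19). P-values were adjusted by Benjamini-Hochberg over 17170 genes, with calls below 0.05. A fitted difference can part slightly from a difference of means because of the block. The fits were tested on simulated data.

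Members and lists were chosen with earlier results of these data known. By rule, members named were those called or apart from the median gene at the extremes of each comparison, the brightest and dimmest, and a set of well-studied genes; other genes named beside counts, and the within-range values for hybridization controls, were chosen after their values were seen.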

Additional observations from a re-analysis of the deposited data

Results flagged for a closer look

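The difference of pellet responses between the sites was called for 3 ribosomal protein genes after the median ribosomal gene of each array had been subtracted from the deposited values. It was −1.99 for RPL23 (SE 0.55, limma adjusted p = 0.0091), −1.96 for RPL23A (SE 0.66, limma adjusted p = 0.0192) and −1.93 for RPS12 (SE 0.63, limma adjusted p = 0.0168). Of all genes, 64.3% were called lower in the same way. Before the subtraction the 3 genes differed by 0.14, 0.20 and 0.23 between the responses, and after quantile normalization with the subtraction none was called. In groups of 2 and 3 arrays no single array was tested as an outlier.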

How the results depend on the processing

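After quantile normalization, the count of ribosomal genes called in primary tumors went from 38 to 0 and the median difference from −1.82 to −0.19. The share of all genes called lower there went from 6.94% to 0.582%. Between the sites with E the ribosomal count went from 49 to 0 and the median from 1.91 to 0.29. The share of all genes called higher there went from 7.81% to 0.0757%. The median difference of responses went from 1.88 to 0.35, and RPS9 between the sites with E turned to −0.024. Of all genes, those apart from the median ribosomal gene fell from 68.3% to 0.722% (higher, primary tumors), 64.3% to 0.0291% (lower, responses) and 74.6% to 0.641% (lower, sites with E). The genes apart from the median gene fell from 7 to 0 in primary tumors, from 3 to 0 for the difference of responses and from 7 to 0 between the sites with E. With the mean of all probe sets of a gene, these 3 counts were 11, 6 and 14, and the primary tumor median was −1.36; without _x_ probe sets they were 11, 8 and 11. With the hybridization control covariate, 39 genes were called for the difference of responses and 4 between the sites after withdrawal, and 12, 8 and 3 were apart in primary tumors, the difference of responses and the sites after withdrawal. Between the sites with E, fits with only the arrays compared called none, and 4 were apart. Over all comparisons as deposited, 15 calls of named genes held in such fits and 23 did not. With no replicate block for mouse, the counts were 39 in primary tumors and 54 between the sites with E; with mouse as a fixed replicate block, 0 between the sites with E.

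Leaving out 1 array gave 0 to 51 called, medians of −2.30 to −1.18 and 1 to 8 apart in primary tumors; 0 to 33 called, medians of 1.31 to 2.42 and 0 to 5 apart for the difference of responses; and 6 to 60 called, medians of 1.36 to 2.33 and 1 to 8 apart between the sites with E. After quantile normalization it gave 0 to 2 called and 0 to 1 apart in primary tumors, and medians of 0.16 to 0.49 for the difference of responses. The counts of the lymph node pellet comparison stayed at 0 in every fit run. The causes were not tested. The share of all genes called also moved between fits, so a count given without it cannot be read as particular to the ribosomal genes. Testing without the low-value filter gave 33 calls in primary tumors and 49 between the sites with E. Dim probe sets limit what RPL23, RPS12, RPL35A and RPL23A can show.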

Other observations

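After quantile normalization, the ribosome assembly genes had a median difference of the opposite sign to the ribosomal protein genes in primary tumors. This list of 42 tested genes holds rRNA-modifying and nucleolar factors and subunits of RNA polymerase I. It is dimmer, with 6 of the 42 at a mean signal of at least 10, against 57 of the 65 ribosomal protein genes. The lists were not compared at like signal. In the pellet comparison of primary tumors 32 of the 42 were higher with E, with a median of 0.62 beside −0.19 for the 65 ribosomal protein genes and 0.06 for all genes tested. In lymph nodes 38 of the 42 were higher with E, with a median of 0.70 beside 0.10 for the ribosomal protein genes and 0.02 for all genes tested. No assembly gene was called in either comparison on this scale, and the opposite signs of the lists were not tested. As deposited, the list medians were −0.37 in primary tumors and 0.64 in lymph nodes.

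A further 57 probe sets list a ribosomal protein symbol beside other symbols and were left out of the members. Of these, 47 were lower with E in primary tumors as deposited, with a median of −0.64 that was −0.05 after quantile normalization. The 20 with a mean signal of at least 10 were all lower, with a median of −1.73, which was −0.25 after quantile normalization. Of the 57, 10 belong to RPL29, RPL26 and RPS26, which have no single-symbol probe set and are no members. In primary tumors 7 of these 10 were lower as deposited, with a median of −0.47, which turned to 0.42 after quantile normalization, and in lymph nodes their median was 0.65 as deposited.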
